A study of Mus musculus with 5 samples.

Results

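The genes of the respiratory chain and the ATP synthase were followed in lymphatic endothelial cells (LECs), which form the walls of lymph sinuses in a lymph node. Members were the protein-coding genes whose symbols begin with Nduf, Uqcr or Atp5, the genes Sdha to Sdhd, Cox4 to Cox8 with any suffix, and the mitochondrial genes beginning with mt-Nd, mt-Co, mt-Cyt or mt-Atp. This rule took 105 of the 27843 genes in the count table, 92 of them encoded in the nucleus and 13 in the mitochondrial genome. The annotation holds 107 such genes, and Cox8c and a second Atp5o locus were not analysed here. Ndufa4 and Ndufa4l2 were grouped with complex IV, where the Ndufa4 protein sits, and the assembly factors Ndufaf1 to Ndufaf8 were kept apart from the subunits.

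The libraries came from LECs of mouse lymph nodes, sorted as CD45- TER119- CD31+ podoplanin+ cells. The 3 control libraries were from Rankl flox/flox mice and the 2 knockout libraries from Ccl19 Cre Rankl flox/flox mice, in which a Cre driven by Ccl19 removes the cytokine RANKL from stromal cells and not from the LECs themselves. All mice were 8 weeks old, on C57BL/6, and carried floxed Rankl alleles. The number of animals behind each library and the litters they came from are not given, so p-values measure the spread between these 5 libraries, which may be technical. Library totals were 52839375 to 70171307 counts. Tnfsf11, which encodes RANKL, had 27, 13 and 9 reads in the controls and 9 and 0 in the knockouts, which does not check a deletion made in other cells. Of the lymphatic markers, Pecam1 (CD31) stood at 1320.3 to 1337 CPM (CPM being read counts scaled to TMM-adjusted library size) in controls and 1311 to 1347 CPM in knockouts, and Pdpn (podoplanin) at 88.4 to 104 and 100.1 to 124 CPM. Prox1, which sets lymphatic identity, fell from 1383 to 1577 CPM in controls to 851 to 884 CPM in knockouts (log2 fold change -0.75 ± 0.11 SE, adjusted p = 0.019). At an adjusted p under 0.05 it was the 1 of 11 lymphatic markers that fell, and 2 rose, with a median of 0.06 over the list. Both knockouts lay below every control for 3 of the 11 and above for 2, beside 22.5% and 22.8% of all tested genes. The 3 were Prox1, Lyve1 and Cdh5. Lyve1 was at 4320 to 4715 CPM in controls and 2440 and 3662 CPM in knockouts (-0.57 ± 0.18 SE, adjusted p = 0.11), and Cdh5 had -0.21 ± 0.10 (0.25). Mmrn1, an extracellular matrix protein, went from 1127 to 1705 CPM to 3055 and 5027 CPM, and Ccl21a, a chemokine with near-identical gene copies whose counts are therefore uncertain, from 24.2 to 34.0 CPM to 142 and 661 CPM. Among 17 blood endothelial genes 10 rose and none fell, where 3.25% of all tested genes rose and 3.99% fell at an adjusted p under 0.05. The summed level of the 17 was 5440 to 6112 CPM in controls and 8267 to 8426 CPM in knockouts. Of 11 adipocyte genes the 3 tested rose too, and the summed level of the list went from 223 to 274 CPM to 432 and 527 CPM. Most of that sum was Fabp4, at 187 to 235 CPM in controls and 378 and 476 CPM in knockouts. The untested ones had few reads. In controls 1, 2 and 3 and knockouts 1 and 2, Adipoq had 0, 0, 0, 4 and 0 reads, Cidec 1, 0, 1, 28 and 2, and Cfd 0, 0, 3, 43 and 0. In the same order Plin1 had 6, 3, 2, 3 and 11 and Cidea 9, 1, 7, 2 and 0. Lep was at 0 in every library. In such pools of cells, fewer cells of a type and less RNA per cell cannot be told apart.

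Complex I takes electrons from NADH and complex II from succinate, and both hand them to ubiquinone. Complex III passes them to cytochrome c and complex IV to oxygen, while complexes I, III and IV pump protons across the inner mitochondrial membrane. The ATP synthase lets the protons back and makes ATP. Most subunits are encoded in the nucleus and imported, and a small membrane-embedded set is encoded in the mitochondrial genome. That genome is copied into long transcripts that are cut into shorter messages. Complex II is encoded wholly in the nucleus. Endothelial cells are known to draw much of their ATP from glycolysis and to use mitochondria for biosynthesis as well.

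No member passed the test between knockout and control LECs. Of 105 members, 95 had enough reads to be tested, 86 nuclear and 9 mitochondrial, and 0 had an adjusted p under 0.05 (edgeR quasi-likelihood test with Benjamini-Hochberg adjustment over 15874 genes), where 7.24% of all tested genes did, 3.25% higher and 3.99% lower. At an unadjusted p under 0.05, 6 nuclear members were higher and 2 lower, which is 9.30% of those tested beside 26.4% of all tested genes, and no mitochondrial member reached it. The direction of this split depended on the length and GC offset described below. limma-voom also called 0 members and DESeq2 called 1, Ndufb10.

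Differences between the groups were small for the nuclear members. Their log2 fold changes ran from -0.41 (Ndufb2) to 0.34 (Ndufb10) with a median of 0.02, beside a median of -0.0015 over all tested genes. None exceeded 0.5 in size, where 28.6% of all tested genes did. The 95% interval of the log2 fold change lay wholly within 0.5 of 0 for 74 of 86, and for 27.5% of all tested genes. Both knockout libraries lay above every control for 26 members and below every control for 16, together 48.8% of those tested beside 45.4% of all tested genes (22.8% above and 22.5% below). The sum of all nuclear members was 0.618% to 0.640% of counts in controls and 0.643% and 0.648% in knockouts, a difference of 0.0173 percentage points (exact permutation test, two-sided, p = 0.2, the smallest p that 3 against 2 libraries allow). On TMM-scaled sizes the sums overlapped, at 6186, 6158 and 6511 CPM in controls and 6258 and 6649 CPM in knockouts.

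Fold changes over all genes went with gene length (Spearman -0.21 between log2 fold change and exon length over 15821 genes, a description without a test). An offset that removes trends with exon length and GC content over all genes moved the median of the nuclear members from 0.02 to -0.05. The number above 0 went from 48 to 35 of 86, where 49.9% of all tested genes were above 0 before the offset. That shift of the median is larger than its spread between replicates (SD 0.027). The median over all tested genes was 0.023 with the offset. Within the 86 nuclear members the offset did not remove these trends. There the Spearman correlation of the fold change went from 0.14 to 0.42 with exon length and from 0.19 to -0.21 with GC content. With the offset 0 members and 4.65% of all tested genes were called, and the split of calls over all genes went from 516 higher and 634 lower to 408 (2.57%) and 330 (2.08%). At an unadjusted p under 0.05 the nuclear members went from 6 higher and 2 lower to 1 higher and 8 lower. Over all tested genes 12.8% were higher and 13.6% lower at that level before the offset. With the offset 1 mitochondrial member, mt-Nd4, reached it.

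**Figure D1:**
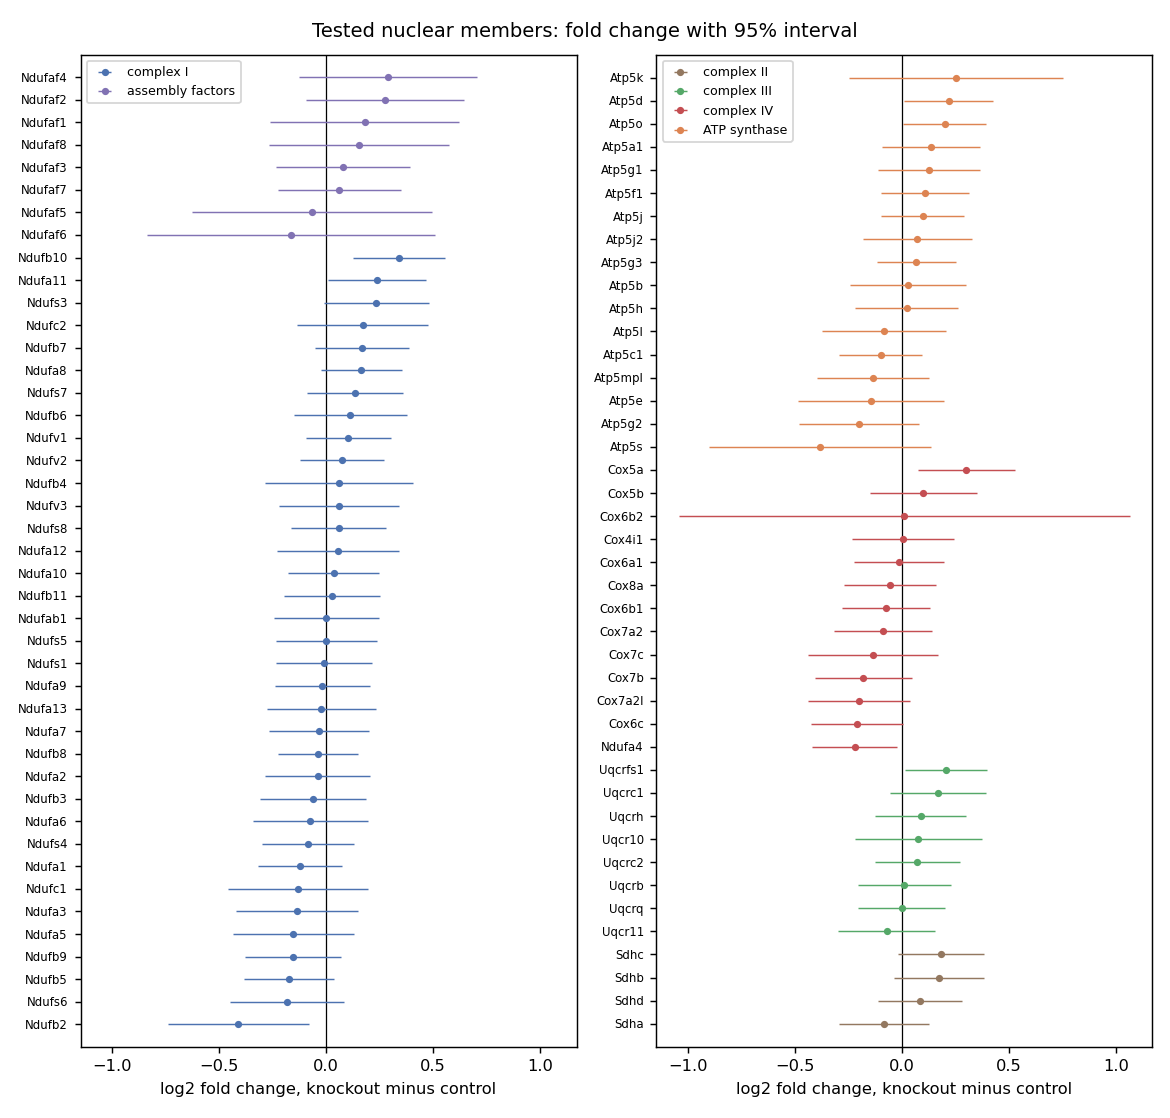
Log2 fold change (knockout minus control, x axis) of 85 of the 86 tested nuclear members, one row per gene, coloured by complex. Points are edgeR estimates from 3 control and 2 knockout libraries and bars are 95% intervals; estimates run from -0.41 for Ndufb2 to 0.34 for Ndufb10.

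Complex I had 36 nuclear subunits and all were tested. Most of the 7 catalytic core subunits carry the flavin or iron-sulfur clusters or bind ubiquinone. The 7 had a median log2 fold change of 0.10, and 6 of 7 lay above 0. Both knockout libraries exceeded every control for 5 of them, Ndufs3 included, where this held for 22.8% of all tested genes. Ndufs3, a core subunit of the peripheral arm, stood at 28.4, 25.8 and 27.2 CPM in controls 1, 2 and 3 and at 29.8 and 34.0 CPM in knockouts 1 and 2 (log2 fold change 0.23 ± 0.10 SE, adjusted p = 0.21). With the length and GC offset the core median was 0.02.

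The 29 accessory subunits, which surround the core and stabilise it, had a median of -0.02. Knockouts exceeded every control for 5 and lay below every control for 8, beside 22.8% and 22.5% of all tested genes. Ndufb10, an accessory subunit of the membrane arm (mm10 chromosome 17, 24722060 to 24724478), had the largest positive difference. It stood at 26.7, 27.3 and 25.4 CPM in the controls and at 33.1 and 33.9 CPM in the knockouts. The groups did not overlap, and the log2 fold change was 0.34 ± 0.09 (SE, 95% interval 0.12 to 0.56, adjusted p = 0.069). With the offset it was 0.20 ± 0.09 (adjusted p = 0.26), and over all alternatives the adjusted p ran from 0.022 with DESeq2 to 0.56. Ndufb2, another membrane arm subunit (chromosome 6, 39592574 to 39603382), had the largest negative one. Its level was 16.0, 18.3 and 19.4 CPM in the controls and 14.6 and 12.4 CPM in the knockouts. These groups did not overlap either (log2 fold change -0.41 ± 0.14 SE, 95% interval -0.74 to -0.08, adjusted p = 0.12).

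Ndufa11, a membrane arm subunit, stood at 33.0, 33.6 and 34.9 CPM in controls and 37.4 and 42.4 CPM in knockouts (log2 fold change 0.24 ± 0.10 SE, adjusted p = 0.17). Ndufa1 had the highest level per length in complex I, at 85.9 CPM per kb of exon. Its CPM was 37.5, 37.2 and 36.8 in controls and 34.0 and 34.3 in knockouts, and the groups did not overlap (log2 fold change -0.12 ± 0.08 SE, adjusted p = 0.40). The lowest level per length was that of Ndufab1, the mitochondrial acyl carrier protein, at 2.72 CPM per kb.

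All 4 genes of complex II, which is also the succinate dehydrogenase of the tricarboxylic acid cycle, were tested. Sdha, the flavoprotein, had the highest level per length, 103 CPM per kb. It was at 425, 434.5 and 451 CPM in controls and 421 and 402 CPM in knockouts (log2 fold change -0.09 ± 0.09 SE, 95% interval -0.30 to 0.12, adjusted p = 0.59). Sdhc, a membrane anchor, was at 32.6, 33.1 and 31.9 CPM in controls and 37.3 and 36.5 CPM in knockouts (log2 fold change 0.18 ± 0.08 SE, adjusted p = 0.23). Sdhb and Sdhd, the iron-sulfur subunit and the other anchor, had log2 fold changes of 0.17 and 0.08. Neither passed the test, and the knockouts lay above every control for Sdhb, Sdhc and Sdhd and below every control for Sdha, where 45.4% of all tested genes had no overlap in either direction.

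Complex III had 8 nuclear subunits, all tested, with a median of 0.07. Uqcrfs1, the Rieske iron-sulfur protein that passes electrons to cytochrome c1, had the largest positive difference. It stood at 59.6, 62.0 and 63.5 CPM in controls and 70.4 and 71.8 CPM in knockouts, with no overlap (log2 fold change 0.20 ± 0.08 SE, 95% interval 0.01 to 0.39, adjusted p = 0.17). Uqcrc1, a core protein and the highest per length at 65.3 CPM per kb, was at 245, 254 and 274 CPM in controls and 299.5 and 279 CPM in knockouts (0.17 ± 0.09 SE, adjusted p = 0.31). Uqcr11, a small subunit, had the only fold change below -0.01 in this complex, -0.07 ± 0.09 (SE, adjusted p = 0.68).

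Most members of complex IV, the cytochrome c oxidase, were below 0. Of 13 tested nuclear members 9 were below 0, with a median of -0.07, and with the length and GC offset 11 were below 0, with a median of -0.18. No member was called in either fit. Ndufa4, a subunit first assigned to complex I, was at 63.0, 63.9 and 66.6 CPM in controls and 53.8 and 56.7 CPM in knockouts (log2 fold change -0.22 ± 0.08 SE, 95% interval -0.42 to -0.02, adjusted p = 0.15). Cox6c, Cox7b and the supercomplex factor Cox7a2l had fold changes of -0.21, -0.18 and -0.20, and like Ndufa4 they were below every control in both knockouts. This held for 4 of 13 tested members and for 22.5% of all tested genes. Cox5a, a subunit on the matrix side of the enzyme (chromosome 9, 57521274 to 57532426), went the other way. It was at 21.7, 20.8 and 20.2 CPM in controls and 25.8 and 25.7 CPM in knockouts, without overlap (0.30 ± 0.10 SE, 95% interval 0.07 to 0.53, adjusted p = 0.10), and at 0.33 with the offset. The partner subunit Cox5b had a fold change of 0.10 ± 0.11.

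Several subunits of complex IV have a common isoform and one known from muscle, lung, testis or hypoxic cells, and LECs of both groups carried the common ones. Cox4i1 stood at 174 to 186 CPM in controls and 167 and 196 CPM in knockouts, while its partner Cox4i2 had 5, 2 and 2 reads in controls and 6 and 5 in knockouts. Cox6a1 was the highest member of complex IV per length (146 CPM per kb, log2 fold change -0.01 ± 0.09 SE), and Cox6a2 had 1, 3 and 0 reads in controls and 3 and 0 in knockouts. Cox7a2 was at 31.7 to 35.5 CPM in controls and 30.6 and 32.8 CPM in knockouts, and Cox7a1 had at most 6 reads in any library. Cox8a was at 65.7 to 74.0 CPM in controls and 65.8 and 68.8 CPM in knockouts, and Cox8b had at most 2 reads. Cox7b2 had 2 reads in control 1 and 0 elsewhere. Ndufa4l2 had 1 read in each control and 8 and 3 in the knockouts. Cox6b2 was the one such isoform with enough reads to test, at 30, 50 and 42 reads in controls and 34 and 43 in knockouts, with a wide interval (log2 fold change 0.01, 95% interval -1.04 to 1.06), while Cox6b1 had -0.07 ± 0.09. With at most 8 reads in a library, no difference in the untested isoforms was detectable at this depth. Of 14 skeletal and cardiac muscle genes with a count, 3 were at 0 in every library (Actc1, Myh4 and Tnnt3), and their summed level was 2.66 to 4.13 CPM in controls and 3.78 and 3.94 CPM in knockouts.

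The ATP synthase held the most abundant nuclear members. Atp5b, the catalytic beta subunit of the F1 head, had the highest level per length of all nuclear members, 369.7 CPM per kb. It stood at 1490.0, 1527 and 1647 CPM in controls and 1469 and 1699 CPM in knockouts, and the groups overlapped (log2 fold change 0.03 ± 0.11 SE, 95% interval -0.24 to 0.30, adjusted p = 0.91). Atp5a1, the alpha subunit, followed at 190.0 CPM per kb (0.14 ± 0.10 SE, adjusted p = 0.42). Of 17 members tested 11 were above 0, with a median of 0.07. Atp5d, the delta subunit of the central stalk, was at 108, 106 and 109.9 CPM in controls and 118 and 133 CPM in knockouts (0.22 ± 0.09 SE, adjusted p = 0.17), and at 0.05 with the offset.

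The 4 peripheral stalk subunits, which hold the head still, were all above 0, led by Atp5o at 49.5, 50.7 and 53.2 CPM in controls and 57.9 and 59.3 CPM in knockouts (0.20 ± 0.08 SE, adjusted p = 0.18). The c ring, the rotor in the membrane, is encoded by 3 genes that make the same mature protein. Atp5g3 was the highest per length (54.1 CPM per kb), with Atp5g2 at 7.64 and Atp5g1 at 5.18 CPM per kb. The order of the last 2 depends on annotated exon length, as the mean CPM was 25.5 for Atp5g1 and 12.8 for Atp5g2. Atp5g1 and Atp5g3 had fold changes of 0.13 and 0.07 and Atp5g2 -0.20, each with no overlap between groups and none past the test (smallest adjusted p 0.33, for Atp5g2). Atp5k, a small membrane subunit, had the largest positive value of the enzyme (2.77, 2.59 and 2.54 CPM in controls, 2.99 and 3.28 CPM in knockouts, log2 fold change 0.25 ± 0.21 SE, adjusted p = 0.50). Atp5s, a factor associated with the enzyme, had the largest negative value, at 6.24, 7.40 and 8.62 CPM in controls and 4.77 and 6.60 CPM in knockouts. Its groups overlapped (-0.38 ± 0.22 SE, 95% interval -0.90 to 0.14, adjusted p = 0.32).

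The complex I assembly factors are chaperones and enzymes that build the complex and leave it. Their levels per length lay between 1.79 CPM per kb (Ndufaf4) and 6.21 CPM per kb (Ndufaf8). Their median was 0.12 and 6 of 8 lay above 0. Ndufaf4 was at 7.43, 6.15 and 5.62 CPM in controls and 7.49 and 8.16 CPM in knockouts (0.29 ± 0.17 SE, adjusted p = 0.34). Ndufaf6 was at 2.67, 2.098 and 2.71 CPM in controls and 2.67 and 1.79 CPM in knockouts (-0.16 ± 0.28 SE, 95% interval -0.84 to 0.51). Ndufaf8 had a fold change of 0.15 ± 0.18.

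**Figure D2:**
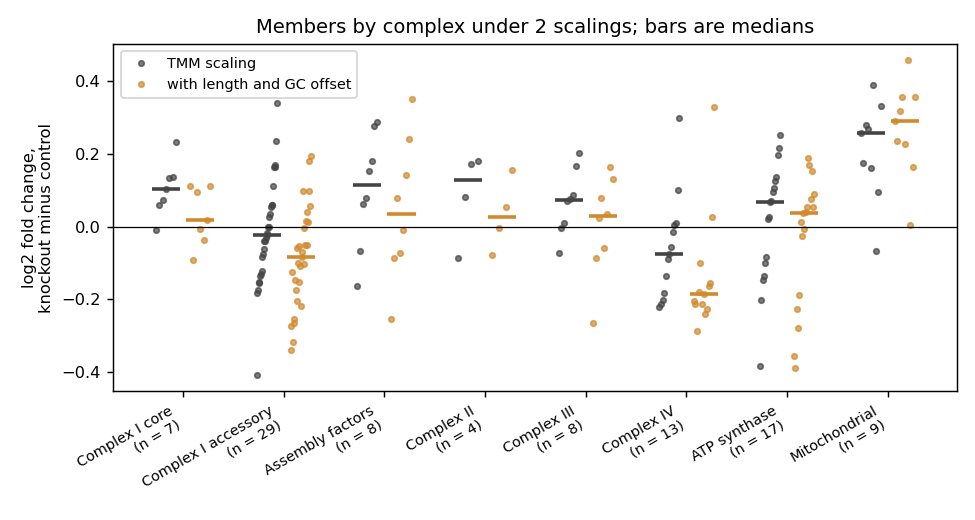
Log2 fold change (knockout minus control, y axis) of each tested member by complex, from edgeR with TMM scaling and with the added length and GC offset. Each point is a gene and each bar a median; the complex IV median moves from -0.07 to -0.18 and the nuclear medians all shift downward, while the mitochondrial median goes from 0.26 to 0.29.

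Some nuclear members share sequence with other annotated genes, and their counts are uncertain because the treatment of reads that match several places is not given in the sources used here. For 9 of 92, over 25% of all 50-base windows of the transcript also occur in another gene. Ndufaf2 led with 80.9%, most of it in the overlapping gene B230220B15Rik, which these unstranded libraries cannot separate. Ndufs3 had 39.7% shared, Ndufb4 37.0%, Atp5o 34.9%, Ndufb6 34.1%, Ndufs5 31.1%, Ndufa13 28.5%, Cox7c 27.9% and Cox5b 25.9%. For 45 of 92 nuclear members no window was shared.

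Genes that work with the chain were read in the same fit. Of 47 other assembly factors tested, 0 rose and 1 fell, with a median of 0.06. Over all tested genes 3.25% rose and 3.99% fell. The assembly factor that fell was Coa5, which is needed for complex IV assembly. It went from 93.1, 76.8 and 81.5 CPM in controls to 58.8 and 55.6 CPM in knockouts (log2 fold change -0.55 ± 0.11 SE, adjusted p = 0.034). Coa5 was -0.49 with the offset (adjusted p = 0.048), and it was no longer called when any single control or knockout 2 was left out (adjusted p 0.052 to 0.12) or when replicate number was a block (0.15). Foxred1, a complex I assembly factor, had -0.40 ± 0.10 (adjusted p = 0.056), Cox19, a copper chaperone factor of complex IV, had 0.49 ± 0.13 (0.068), and Atpaf1, an assembly factor of the ATP synthase, had -0.45 ± 0.19 (0.19).

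Of 11 tested carriers of adenine nucleotides, phosphate and protons, including the outer membrane channels, 1 rose and 0 fell, with a median of 0.27. The shares over all tested genes were 3.25% and 3.99%. Vdac1, the main voltage-dependent channel of the outer membrane, rose from 37.4, 40.8 and 47.7 CPM in controls to 69.0 and 74.6 CPM in knockouts (0.77 ± 0.12 SE, adjusted p = 0.020). It was 0.70 with the offset (adjusted p = 0.032) and was no longer called when any single control was left out (adjusted p 0.057 to 0.075) or with the replicate block (0.092). Slc25a4, the ADP/ATP translocase of the inner membrane, had 0.43 ± 0.10 (adjusted p = 0.058) and Vdac3 0.30 ± 0.08 (0.068). Slc25a31, the testis translocase, had 12, 5 and 13 reads in controls and 0 in both knockouts (adjusted p = 0.064). The blood endothelial genes given above moved in the same libraries as Vdac1. Of 11 tested pericyte and smooth muscle genes 3 rose as well, and 7 lay above 0. Rgs5, Abcc9, Pdgfrb and Notch3 lay below 0, at -0.33, -0.28, -0.28 and -0.34. The summed levels overlapped (127 to 161 CPM in controls, 158 and 204 CPM in knockouts). The part of these endothelial and pericyte genes in the rise of Vdac1 was not tested.

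No gene passed the test in the other sets. Of 20 genes of electron carriers and ubiquinone synthesis, with a median of 0.08, Coq8b had 0.45 ± 0.13 (adjusted p = 0.085), Coq8a -0.37 ± 0.11 (0.091), Coq6 0.29 ± 0.11 (0.15) and Cycs, cytochrome c, 0.19 ± 0.10 (0.27). Of 26 genes for upkeep and transcription of mitochondrial DNA, with a median of 0.13, Trmt10c, part of the enzyme that cuts mitochondrial transcripts, had 0.42 ± 0.10 (adjusted p = 0.056). The DNA polymerase Polg had -0.24 ± 0.09 (0.15), Lrpprc, which stabilises mitochondrial messages, -0.29 ± 0.11 (0.17) and the poly(A) polymerase Mtpap 0.30 ± 0.12 (0.18). Of 14 regulators of respiratory genes, with a median of -0.13, Gabpb2 had -0.73 ± 0.17 (adjusted p = 0.052), Nfe2l2 0.38 ± 0.09 (0.055), Esrrg -1.35 ± 0.40 (0.090) and Hcfc1 -0.27 ± 0.09 (0.13).

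The tricarboxylic acid cycle (20 genes, median 0.04) and the cristae and cardiolipin genes (19 genes, median 0.14) had no call either. The first list includes Pcx, whose enzyme feeds the cycle and is not a step of it, and the second includes the matrix protease gene Clpp. In the cycle list the smallest p-values were those of Pcx (-0.40 ± 0.14, adjusted p = 0.13), Idh3g (0.23 ± 0.09, 0.17), Mdh2 (0.15 ± 0.09, 0.33) and Idh3a (0.15 ± 0.10, 0.42). In the cristae and cardiolipin list they were those of Phb2 (0.27 ± 0.08, adjusted p = 0.097), Clpp (0.32 ± 0.11, 0.11), Ptpmt1 (0.30 ± 0.12, 0.16) and Oma1 (0.30 ± 0.15, 0.25). At an unadjusted p under 0.05 the other assembly factors had 2 genes higher and 3 lower, the carriers 6 and 1, the ubiquinone set 2 and 1, the mitochondrial DNA set 2 and 2, the regulators 1 and 3, the cycle 1 and 1, and the cristae set 3 and 0. Over all tested genes 12.8% were higher and 13.6% lower at that level. Of the genes named from these lists that edgeR did not call, DESeq2 called Foxred1, Cox19, Slc25a4, Vdac3, Coq8b, Coq8a, Trmt10c, Gabpb2, Nfe2l2 and Esrrg, and limma-voom called Gabpb2 and Slc25a31.

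The promoters of nuclear members are known for sites of the factors NRF1, GABP of the ETS family, and YY1, and the promoters were searched for these letters. RefSeq promoters (GRCm38.p6, the same build as mm10) spanning 250 bases before to 50 after the start were matched by symbol for 74 of 92 nuclear members. On either strand, the NRF1 motif, GCGCA then any base then GCGC, occurred in 25.7% of them, in 10.5% of tested genes with an entry and in 5.19% of all genes with an entry. The ETS motif CCGGAAG occurred in 24.3%, 18.4% and 9.93%, and the YY1 motif ATGGCGGC in 9.46%, 5.10% and 2.60%. Of the tested members with an entry, 19 held the NRF1 motif, 18 the ETS motif and 4 both. The median log2 fold change was 0.02 with the NRF1 motif and 0.05 without it, 0.09 with the ETS motif and 0.03 without it, and -0.03 with the YY1 motif and 0.06 without it. The sequences show how 1 promoter of each kind reads, 5′ to 3′ in the direction of the gene, over the 120 bases before the start, with the motif in capitals. The NRF1 example is Ndufaf4 (chr4:24897963-24898082, plus strand) and the ETS example Ndufaf1 (chr2:119662835-119662954, minus strand).
Ndufaf4: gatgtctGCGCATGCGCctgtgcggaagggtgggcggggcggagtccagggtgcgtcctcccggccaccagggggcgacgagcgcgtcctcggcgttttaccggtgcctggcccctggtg
Ndufaf1: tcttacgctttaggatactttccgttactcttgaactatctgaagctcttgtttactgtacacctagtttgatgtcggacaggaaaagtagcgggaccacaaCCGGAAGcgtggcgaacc

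The mitochondrial genome encodes 13 members, and they were counted very unevenly along it. mt-Cytb, the cytochrome b of complex III, had 25376 to 53194 reads in a library, while mt-Co2, a catalytic subunit of complex IV that holds a copper centre, had 2, 2 and 0 reads in controls and 1 and 0 in knockouts. mt-Co3, another core subunit of complex IV, had 9, 3 and 2 reads in controls and 4 and 3 in knockouts. mt-Nd3, a membrane subunit of complex I, had 14, 5 and 5 reads in controls and 1 and 2 in knockouts. mt-Nd4l, another membrane subunit of complex I, had 8, 6 and 2 reads in controls and 0 and 2 in knockouts. These 4 genes stayed at 14 reads or fewer in all libraries, while mt-Atp6 had at least 181 and the other 8 at least 631.

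Nearly all of the sequence of these 4 genes is copied in the nucleus. All 50-base windows of mt-Co2 occur in another annotated gene, as do 99.9% of those of mt-Co3, 98.8% of mt-Nd4l and 98.0% of mt-Nd3. mt-Atp6, the proton channel subunit of the ATP synthase, had 99.5% shared and was counted at 3.46 to 4.72 CPM. mt-Nd4 had 62.2% shared and mt-Co1 51.1%, mt-Nd2 8.19% and mt-Nd5 7.61%, and mt-Nd1, mt-Nd6, mt-Cytb and mt-Atp8 shared none. The copies include 7 unprocessed pseudogenes on chromosome 1 between 24611535 and 24616197, which match genes between positions 5328 and 11544 of the mitochondrial genome, and further pieces on chromosome 2. Those of mt-Nd5 lie in processed pseudogenes on chromosomes 13 and 4, and short stretches of mt-Atp6 and mt-Co1 also occur in other processed pseudogenes. Of the chromosome 1 copies, the 6 with a count had at most 4 reads in any library and 26 reads in all. A read of 50 bases from a shared window matches both places, and how reads with several matches were counted was not stated. The part of this sharing in the low counts was not tested, and the levels of all 7 genes with over 25% of windows shared are uncertain.

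A window from the middle of mt-Co2 (chrM:7330-7379, plus strand) and its copy in Gm28661 (chr1:24615199-24615248, minus strand) are printed because they are identical, so that a read from either one has the same letters. A window of mt-Co1 (chrM:5835-5884, plus strand) and its counterpart in Gm13340 (chr2:22589091-22589140, minus strand) come from a stretch that can be told apart. They differ by C12T and G27A, counted from 1 at the 5′ end of the window with the mitochondrial base first, and these bases are in capitals. Sequences are from GENCODE M21 transcripts (mm10), 5′ to 3′.
mt-Co2: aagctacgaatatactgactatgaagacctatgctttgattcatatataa
Gm28661: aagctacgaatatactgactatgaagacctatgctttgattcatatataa
mt-Co1: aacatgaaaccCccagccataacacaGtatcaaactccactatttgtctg
Gm13340: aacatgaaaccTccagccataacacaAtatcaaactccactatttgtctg

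**Figure D3:**
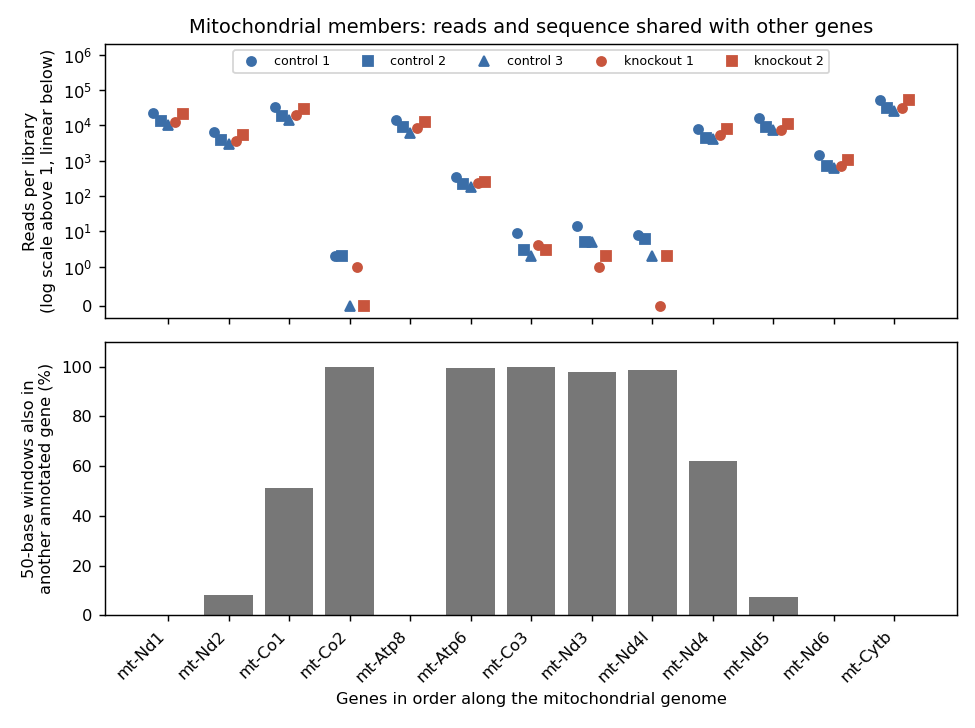
Reads per library (top, log scale above 1 and linear below) and the percent of 50-base windows that also occur in another annotated gene (bottom) for the 13 mitochondrial members, in order along the mitochondrial genome. The 4 genes at 14 reads or fewer, mt-Co2, mt-Co3, mt-Nd3 and mt-Nd4l, are those with 98.0% to 100% of windows shared, and mt-Atp6, with 99.5% shared, is the lowest of the other 9.

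Among the 9 tested mitochondrial members, 0 were called and 8 lay above 0, with a median log2 fold change of 0.26. Their levels varied more between libraries of a group than between groups. mt-Cytb stood at 749, 507 and 488 CPM in controls and 573 and 892 CPM in knockouts (log2 fold change 0.33 ± 0.25 SE, 95% interval -0.25 to 0.92, adjusted p = 0.44). mt-Co1, the catalytic subunit of complex IV, was at 478, 286 and 276 CPM in controls and 358 and 484 CPM in knockouts (0.28 ± 0.26 SE, 95% interval -0.34 to 0.90, adjusted p = 0.55). Control 1 and knockout 2 were the highest pair of libraries for both genes, and the groups overlapped.

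Control 1 and knockout 2 were also the highest pair for the complex I genes. mt-Nd1 was at 316, 217 and 203 CPM in controls and 232 and 355 CPM in knockouts (0.26 ± 0.24 SE). mt-Nd2 was at 92.2, 60.4 and 58.5 CPM in controls and 66.7 and 92.3 CPM in knockouts (0.18 ± 0.23 SE). mt-Nd4 had the largest value, at 110.3, 71.9 and 76.8 CPM in controls and 94.4 and 132 CPM in knockouts (0.39 ± 0.22 SE, 95% interval -0.13 to 0.90, adjusted p = 0.30, and 0.0996 with the length and GC offset). These membrane subunits belong to the proton-pumping arm, and none separated the groups.

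mt-Nd5, another pumping subunit, was at 229.7, 143 and 142 CPM in controls and 139 and 189 CPM in knockouts and had the only value below 0 (-0.07 ± 0.24 SE, 95% interval -0.64 to 0.50). mt-Nd6 is the one member encoded on the other strand, and it was the lowest of the well-counted genes without shared windows, at 20.4, 11.4 and 12.1 CPM in controls and 12.98 and 18.3 CPM in knockouts (0.09 ± 0.28 SE). mt-Atp8, the small subunit next to the proton channel, was at 197, 141 and 119 CPM in controls and 158 and 209 CPM in knockouts (0.27 ± 0.22 SE). mt-Atp6 was at 4.72, 3.46 and 3.48 CPM in controls and 4.36 and 4.33 CPM in knockouts (0.16 ± 0.22 SE). Per length, mt-Atp8 stood at 807 CPM per kb, mt-Cytb at 561, mt-Nd1 at 276, mt-Co1 at 244, mt-Nd5 at 92.4, mt-Nd2 at 71.3, mt-Nd4 at 70.4, mt-Nd6 at 29.0 and mt-Atp6 at 5.98 CPM per kb. The end of mt-Atp8 overlaps the start of mt-Atp6, and reads there cannot be told apart.

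**Figure D4:**
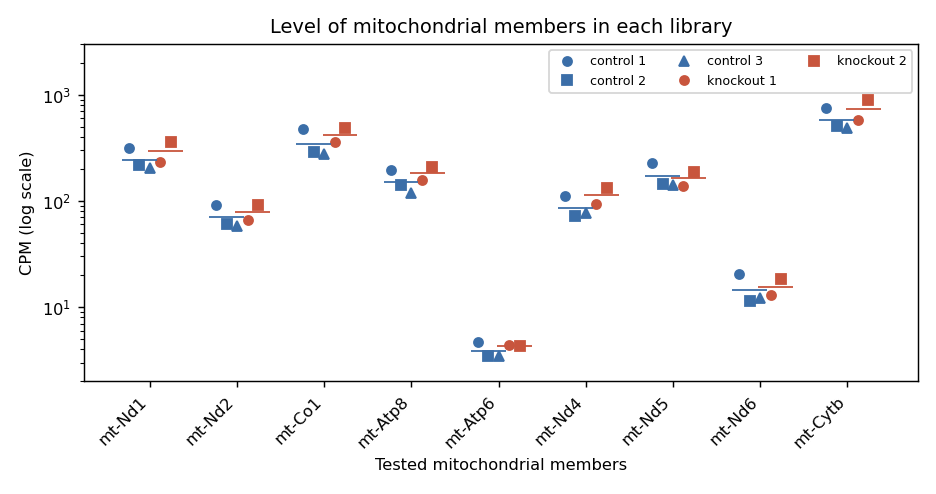
Level (CPM, log scale) of the 9 tested mitochondrial members in each of 3 control and 2 knockout libraries, with horizontal lines at the group means. Control 1 and knockout 2 are the highest libraries for 8 of 9 genes, and no gene separates the groups.

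Control 1 and knockout 2 were the 2 highest libraries for 8 of 9 tested genes, and for mt-Atp6 they were control 1 and knockout 1. The highest library exceeded the lowest by 1.36 (mt-Atp6) to 1.83 times (mt-Nd4). Summed over all 13 members, the mitochondrial share of counts was 0.222%, 0.145% and 0.136% in controls 1, 2 and 3 and 0.168% and 0.231% in knockouts 1 and 2. The knockouts were higher by 0.0323 percentage points, within the spread between libraries (exact permutation test, two-sided, p = 0.4, where 0.2 is the smallest possible). Without knockout 2 the difference was 0.000733 percentage points. The ratio of mitochondrial to nuclear member counts was 0.355, 0.234 and 0.212 in controls and 0.262 and 0.357 in knockouts (exact permutation test, two-sided, p = 0.4). In both measures mt-Co2, mt-Co3, mt-Nd3 and mt-Nd4l added at most 14 reads each in a library, and mt-Atp6 181 to 335. The share and the ratio thus rest almost wholly on the other mitochondrial members and are not totals of the organelle.

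The ribosomal RNAs of the organelle were counted in the same libraries. mt-Rnr2, the large ribosomal RNA, was at 635, 402 and 411 CPM in controls and 637 and 888 CPM in knockouts, and mt-Rnr1, the small one, at 108, 56.8 and 56.9 CPM in controls and 69.2 and 86.3 CPM in knockouts. Control 1 and knockout 2 were the highest libraries for mt-Rnr1, and for mt-Rnr2 knockout 2 was highest with knockout 1 and control 1 close to each other. The median of the tested mitochondrial members went from 0.26 to -0.05 without knockout 2 and was 0.48 without control 1. Beside these values, the summed level of 15 stress and immediate early genes was 12561, 14261 and 14284 CPM in controls and 12785 and 18078 CPM in knockouts, and that of 12 fibroblastic reticular cell genes 479, 482 and 330 CPM in controls and 1077 and 480 CPM in knockouts. Their part in the library pattern of the mitochondrial genes was not tested. Library totals were highest in control 1 (70171307) and stood at 59725200 in knockout 2, the third highest.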

How the data were processed

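RNA from sorted LECs was made into cDNA with SMART-Seq v4 (4 ng RNA, 10 cycles) and tagged with Nextera XT (600 pg cDNA, 12 cycles), and single reads of 50 bases were made without strand, per the labels' protocols. Values are raw counts of reads for each Ensembl gene as deposited, per the file headers. Tools in the submitters' processing notes are HTSeq 0.6.1, Bowtie2 2.1.0, TopHat2 2.0.14 and bcl2fastq 2.17.1.14, with the build mm10. What each tool was set to do, which annotation was used and how reads with several matches were handled is not given in the sources used. Copies made by amplification cannot be told from separate molecules.

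Of 27843 rows, 27648 matched GENCODE M21 (mm10) by identifier, which gave symbols, positions, exon lengths and GC content. The main test was run with edgeR 4.0.16 in R 4.3.3 (filterByExpr with a minimum count of 10, TMM factors 0.974 to 1.028, robust quasi-likelihood F test) over 15874 genes in 3 control and 2 knockout libraries, with Benjamini-Hochberg adjustment and a threshold of 0.05. Log2 fold changes are knockout minus control. CPM uses TMM-scaled sizes, and levels between genes are per kb of exon. Exon length takes all annotated exons of a gene together, so rankings per length depend on the annotation. The SE is the fold change over the root of F, and intervals are at 95%. Summed shares were compared by exact permutation of libraries. Shared windows were searched in annotated transcripts only. No 2 libraries of a group agreed within sampling noise (chi-square per degree of freedom 21.8 to 104).

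Members and gene lists were chosen with earlier results of these data known. Genes named are all mitochondrial members, isoforms of complex IV and the c ring, in each complex the highest per length and the largest change each way, and up to 4 of each list with the smallest p. Ndufs3, Ndufa11, Atp5d, Atp5o and other members named outside this rule were chosen after their values were seen. A nuclear member that entered all counts and medians is not reported here by name or drawn in the plot of fold changes by gene. Alternatives were RLE size factors, library totals, sizes without mitochondrial genes, no filter, 1 CPM in 2 libraries, DESeq2 1.42.0, limma-voom (limma 3.58.1), a threshold of 0.1, an offset by loess (span 0.5) on exon length and GC content, the replicate number as a block, that block with the offset, and each library left out.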

Additional observations from a re-analysis of the deposited data

How the results depend on the processing

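Few or no members were called under any alternative. Some alternatives called few genes of any kind, namely the replicate block (0), that block with the offset (3) and the fits without control 3 (11) or control 2 (173). The absence of member calls in these says little. Of 16 alternatives, 2 called a nuclear member higher, DESeq2 and the threshold of 0.1, with 1 gene each (Ndufb10), and none called one lower or a mitochondrial member. The number of genes called over the whole table was 1150, and it was 2647 with DESeq2, 2546 at a threshold of 0.1, 738 with the length and GC offset and 11 (without control 3) to 1736 (without knockout 1) with a library left out. The median of the nuclear members, 0.02, was -0.0505 with the offset, -0.0209 with the replicate block and offset, and between -0.00119 and 0.0384 in fits without 1 library. The difference in the ratio of mitochondrial to nuclear counts, 0.0425, ran from -0.00531 (without knockout 2) to 0.0903 (without knockout 1). With a library left out, one group can hold a single knockout library, which is then assumed to vary like the controls.

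Replicate numbers occur in both groups, but the labels do not tie them to a litter or day. For that reason the main test did not take the numbers as a pairing. Deviations from the group means correlated at 0.048 between control 1 and knockout 1 and at -0.052 between control 2 and knockout 2. The deviations of 2 knockout libraries mirror each other, so these correlations cannot decide whether the numbers mark pairs. With the replicate block 0 genes were called, and with the block and offset 3. The median of the mitochondrial members was 0.12 with the block.

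The limits are 2 knockout libraries, unknown numbers of animals, and counts that cannot place reads from copied sequence. Differences under the interval widths given were not detectable at this depth.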
